A study of Mus musculus with 24 samples.

Results

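Of the 24 RNA sequencing libraries of the series, 6 compared ovarian cancer cells with and without attachment to plastic, in the absence of interferon gamma (IFN-gamma). They were the 3 libraries of cells kept in ultra-low attachment wells (ULA, a coating that cells cannot grip, so that they float) and the 3 libraries of cells growing on standard plastic (adherent), all from control cells that had received only PBS. The cells were ID8 p53-/-, a mouse line that derives from ovarian surface epithelium and has lost its p53 gene function, and they carried a non-targeting guide RNA (sgNTC). Wells were harvested 48 hours after seeding, and PBS, the vehicle used for IFN-gamma elsewhere in the series, had been present for the last 24 hours. The members were chosen by their labels alone and every gene with enough counts was examined, 14622 genes in all. Beside them, 6 libraries of the same sgNTC cells given IFN-gamma at 100 ng/ml for 24 hours and 6 libraries of Ifngr1-KO cells given PBS, again 3 adherent and 3 ULA each, served for comparison. Ifngr1-KO cells are ID8 p53-/- cells in which Ifngr1, the gene of the receptor chain that binds IFN-gamma, was knocked out. Every library therefore lacks intact p53, each genotype is represented by 1 line, and the 3 libraries of a group are labelled as biological replicates. A p-value rests on how much cultures vary within the 8 groups of the series, Ifngr1-KO cells given IFN-gamma included. Only the ULA wells had their dead cells taken out before RNA extraction, so the effect of that step and the effect of floating cannot be told apart.

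Epithelial cells that lose contact with a substrate lose the signals that integrins, the receptors for extracellular matrix, pass to the cytoskeleton and to growth pathways, and many die by a form of apoptosis called anoikis. Ovarian cancer cells spread through the fluid of the abdominal cavity as single cells and clusters, a route that requires survival without attachment. Several stress programmes bear on such cells. The unfolded protein response raises the chaperones that fold secreted and membrane proteins in the endoplasmic reticulum (ER) when client proteins accumulate there. The integrated stress response acts through the transcription factor ATF4, which raises genes for amino acid uptake, amino acid synthesis and tRNA charging. Sterol synthesis is run by SREBP2 when membrane cholesterol is low, and interferon-inducible genes are switched on by IRF and other transcription factors.

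Totals ran from 33494774 to 55947189 counts in the adherent and from 40326196 to 63154942 counts in the ULA libraries, where each mate of a pair adds 1. On the first principal component of the 6 libraries, which held 76.6% of the variance, adherent libraries lay between -66.4 and -59.9 and ULA libraries between 62.9 and 64. The second, with 8.35%, spread the adherent libraries from -38.1 to 33.1. Mitochondrially encoded transcripts made up 2.49% to 2.77% of adherent counts and 5.09% to 5.66% of ULA counts. Trp53, which encodes p53, was still read, from 32.8 ± 0.784 to 14.7 ± 1.21 CPM (mean ± SD, n = 3 per group, here and below; CPM are counts per 1000000 counts of the scaled library). Ifngr1 went from 43.2 ± 1.98 to 35.6 ± 3.39 CPM (log2 fold change -0.28, SE 0.08, adjusted p = 0.00236), and this call was lost when ULA library 1 was left out. Mesothelial and epithelial genes were present, with Wt1, a transcription factor of mesothelium and ovarian surface epithelium, going from 184 ± 6.92 to 361 ± 11.4 CPM and the keratin Krt19 from 772 ± 37.8 to 1414 ± 44 CPM, whereas Epcam had no count and Krt7 and Cdh1 were near 0. Of the genes that define leukocytes and red cells, Ptprc, Cd3e and Hbb-bs had no count in any of the 6 libraries. As CPM of the library total, 12 lymphocyte markers summed to 0.0809 to 0.627 in adherent and 0.265 to 0.471 in ULA libraries. None was called. The 8 erythroid markers summed to 0.728 to 1.58 CPM and 0.794 to 1.2 CPM, and 1 of 2 tested rose at least 2-fold. The 12 fibroblast and pericyte markers summed to 90.3 to 104 CPM and 121 to 126 CPM. Of 4 tested, 1 rose and 1 fell, each at least 2-fold. The 12 macrophage markers, of which 4 passed the filter on low counts, summed to 14.4 to 16.4 CPM of the library total in adherent and 19.5 to 20.6 CPM in ULA libraries. All 4 were called, though with library totals as scaling the fall of Cd14 was not. Levels of these genes and of the endothelial markers below are CPM of the library total. Cd68 went from 3.21 ± 0.2 to 7.16 ± 0.256 CPM and Mrc1 from 1.18 ± 0.464 to 3.89 ± 0.652 CPM, Csf1r rose from no count to at most 8 counts in a library, and Cd14 fell from 10.5 ± 0.928 to 8.75 ± 0.386 CPM. Of the members below the filter, Adgre1 had at most 4 counts in a library and Lyz2 at most 2. Endothelial markers summed to 58.2 to 65.1 CPM in adherent and 181 to 186 CPM in ULA libraries. Of 5 tested endothelial markers 4 rose, each at least 2-fold. Flt1, a receptor for VEGF, made up most of the sum, Esam went from 9.93 ± 0.802 to 21.5 ± 0.783 CPM, Vwf from 5.1 ± 0.888 to 25.6 ± 2.21 CPM and Pecam1 from 0.622 ± 0.199 to 3.07 ± 0.456 CPM, while Cdh5 and Kdr, which define endothelium, had at most 2 counts in a library. The part of other cell types in the results was not tested.

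Detachment went with a change in 9446 of the 14622 genes, which is 64.6%. Of all genes, 32.5% (4747) were higher and 32.1% (4699) were lower in ULA culture, and these shares are the background for every gene group below. A gene is called higher or lower, and is said to rise or fall, at an adjusted p under 0.05 in edgeR's quasi-likelihood test after adjustment over all genes by the method of Benjamini and Hochberg. At least a 2-fold change was seen in 2015 raised genes (13.8% of all) and 1197 lowered genes (8.19%), and at least a 4-fold change in 804 and 297. Log2 fold changes are given ± SE of the fitted contrast. All 3 ULA libraries lay above all 3 adherent libraries for 4627 of the raised genes, and below them for 4589 of the lowered genes. The raised genes were mostly rare and the lowered genes abundant. In the group where each gene was higher, the median was 4.33 CPM over genes raised at least 2-fold and 39.2 CPM over genes lowered at least 2-fold, beside 25.1 CPM over all genes tested. Even so, genes raised at least 2-fold went from 4.66% of adherent counts to 14.2% of ULA counts, and genes lowered at least 2-fold went from 18.5% to 6.54%. In such bulk RNA, fewer cells that express a gene and less RNA per cell cannot be told apart.

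**Figure D1:**
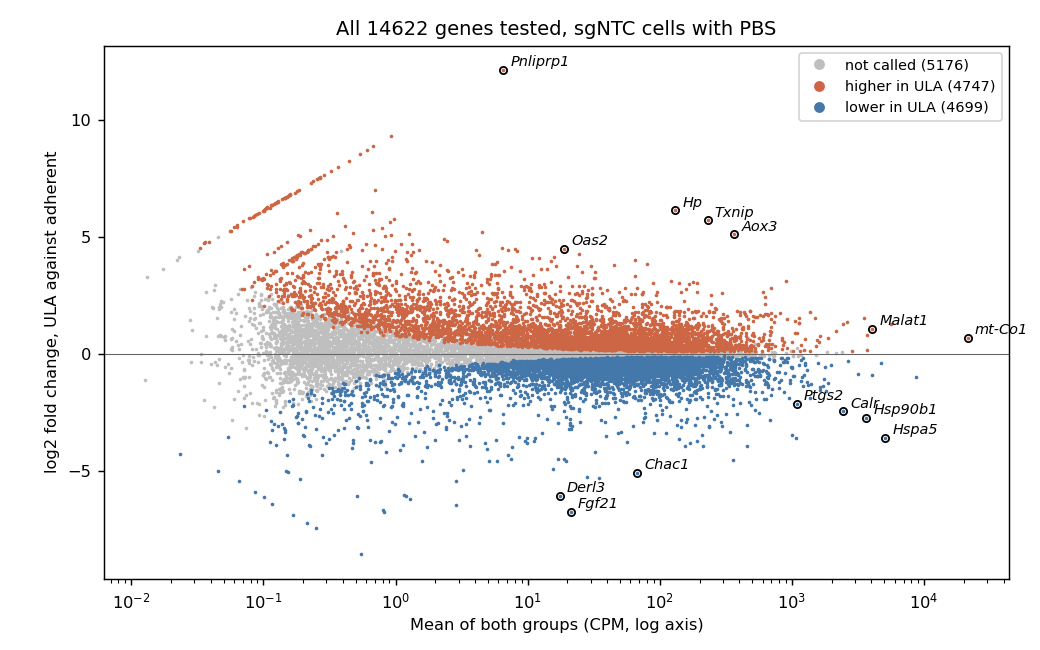
Log2 fold change of ULA against adherent sgNTC cells in PBS (vertical axis) by the mean level of both groups (horizontal axis, CPM, log axis), 1 point per gene and 14 genes named. The 4747 raised genes (orange) reach down to low levels, Pnliprp1 stands highest, and Hspa5, Hsp90b1 and Calr lie at the lower right as abundant genes that fell (blue); 5176 genes were not called (grey).

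Of the gene lists examined, the ER chaperones lost the most counts. All 29 of the 29 tested genes of the unfolded protein response and ER folding machinery fell, 22 of them at least 2-fold, with a median log2 fold change of -1.98 beside 0.03 over all genes. Under 2 of the other scalings 28 of the 29 fell. Summed over all members, as CPM of the library total here and below, they went from 37775 ± 584 CPM in adherent to 8517 ± 34.7 CPM in ULA cells. Hspa5 (chr2:34771970-34777547, GRCm38), which encodes BiP, the main Hsp70 chaperone of the ER lumen and the sensor that keeps the stress receptors silent, read 9557, 9368 and 9239 CPM in the adherent libraries and 795, 770 and 784 CPM in the ULA libraries. Every ULA library was thus more than 10 times below every adherent library (log2 fold change -3.58, SE 0.06, adjusted p = 8.32e-33). Hsp90b1, the ER-resident Hsp90, read 6234, 6487 and 6324 CPM in the adherent libraries and 933, 982 and 958 CPM in the ULA libraries. Calr, the lectin chaperone calreticulin, read 3983, 4332 and 4021 CPM in the adherent libraries and 775, 742 and 750 CPM in the ULA libraries. For both, the groups were far apart, with log2 fold changes of -2.73 ± 0.05 and -2.44 ± 0.06.

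The fall covered each step of ER folding. Of the disulfide isomerases, Pdia4 went from 1832 ± 79.9 to 167 ± 5 CPM and Pdia6 from 962 ± 46.4 to 166 ± 5.76 CPM. Of the co-chaperones, the nucleotide exchange factor Hyou1 went from 1988 ± 75.5 to 165 ± 2.45 CPM, Sdf2l1 from 293 ± 21.3 to 19 ± 1.46 CPM, and Dnajc3, which serves BiP, from 657 ± 17.3 to 110 ± 3.81 CPM. Creld2, a secreted ER stress protein, read 654, 732 and 659 CPM in the adherent libraries and 28.7, 27.6 and 32.1 CPM in the ULA libraries, a log2 fold change of -4.53 ± 0.07. Manf, which binds BiP, fell by the same order (-3.32 ± 0.07). Herpud1, a part of the machinery that retrieves misfolded proteins for degradation, fell by 15.4-fold. Xbp1, whose spliced form drives ER chaperone genes, went from 313 ± 12.7 to 158 ± 4.24 CPM (log2 fold change -0.98, SE 0.05, adjusted p = 1.06e-18), and Dnajb9, a target of XBP1, from 148 ± 4.26 to 63.3 ± 5.4 CPM. Spliced and unspliced Xbp1 were not separated in these gene counts. Derl3, a member of the retrotranslocation channel family, showed the largest fall of the list. It read 30.8, 36.9 and 35.6 CPM in the adherent libraries and 0.423, 0.542 and 0.604 CPM in the ULA libraries, with no overlap between the groups (log2 fold change -6.06, SE 0.30, adjusted p = 9.07e-15).

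The integrated stress response fell with it. Of 24 tested genes, 22 fell, 20 at least 2-fold, and 1 rose, with a median log2 fold change of -2.24. Atf4, the transcription factor at the centre of the response, read 864, 931 and 868 CPM in the adherent libraries and 162, 178 and 169 CPM in the ULA libraries (log2 fold change -2.39, SE 0.06, adjusted p = 7.23e-27). Its partner Ddit3, which encodes CHOP, read 358, 426 and 403 CPM in the adherent libraries and 24, 27.8 and 26.6 CPM in the ULA libraries (-3.92 ± 0.08). The libraries of the groups were well separated for both genes. Of their targets, Chac1, a glutathione-degrading enzyme, read 126, 144 and 122 CPM in adherent and 3.52, 4.55 and 3.63 CPM in ULA libraries. Fgf21 (chr7:45613886-45615490), a hormone secreted under nutrient stress, read 40.3, 43.2 and 42.2 CPM in adherent and 0.272, 0.602 and 0.314 CPM in ULA libraries, the largest fall of any gene named by size (log2 fold change -6.74, SE 0.25, adjusted p = 1.37e-16). Trib3, a pseudokinase induced by ATF4 and CHOP, fell by 12.2-fold, and Ppp1r15a, which restores translation by dephosphorylating eIF2 alpha, by 6.49-fold. Atf3 and Nupr1 fell less, with log2 fold changes of -1.18 ± 0.11 and -1.15 ± 0.12. The gene that rose was Ndrg1, from 480 ± 9.9 to 1355 ± 265 CPM, which is also a known target of hypoxia and of MYC repression.

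The C/EBP-ATF composite site, to which ATF4 binds together with C/EBP factors, is spelled TGATGCAAT. It was searched on both strands in the 250 bases before the start of each RefSeq transcript of a tested gene (GRCm38.p6), in 13840 promoters of 10879 genes, and was found in 0.173% of all promoters, 0.714% of those of genes lowered at least 2-fold and 0.11% of those of genes raised at least 2-fold. Of 25 promoters of the stress response list, 2 (8.0%) held it. The promoters of 3 lowered genes that hold the motif are shown to set its letters beside the values. Each runs over the 150 bases before the start, 5′ to 3′ along the gene, with the motif in capitals (ATTGCATCA is the motif on the other strand).
Fgf21 (chr7:45615491-45615640, minus strand, match at -140 to -132): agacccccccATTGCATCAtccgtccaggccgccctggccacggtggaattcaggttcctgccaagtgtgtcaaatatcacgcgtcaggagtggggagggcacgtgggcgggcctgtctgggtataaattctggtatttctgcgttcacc
Nupr1 (chr7:126625471-126625620, minus strand, match at -111 to -103): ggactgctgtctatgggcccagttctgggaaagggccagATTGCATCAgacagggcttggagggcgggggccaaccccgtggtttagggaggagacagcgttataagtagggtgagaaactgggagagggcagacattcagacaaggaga
Pycr1 (chr11:120643749-120643898, minus strand, match at -103 to -95): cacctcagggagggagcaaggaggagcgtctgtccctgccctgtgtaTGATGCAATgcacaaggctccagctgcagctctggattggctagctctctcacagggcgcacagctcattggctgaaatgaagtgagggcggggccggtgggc
Fgf21 fell most of the 3 and Nupr1 least, at 445, 573 and 428 CPM in adherent and 185, 228 and 238 CPM in ULA libraries. Pycr1, which makes proline, read 30.8, 37 and 29 CPM in adherent and 1.1, 1.93 and 1.33 CPM in ULA libraries (-4.49 ± 0.15). A match says only that these letters are present in the window.

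Genes that make, import and charge amino acids fell alongside. Of 20 tested genes of serine, glycine, one-carbon and related amino acid synthesis, 19 fell and 1 rose. Asns, which makes asparagine, read 511, 532 and 508 CPM in the adherent libraries and 62.3, 65.4 and 77.1 CPM in the ULA libraries. Mthfd2, the mitochondrial folate enzyme of growing cells, read 346, 364 and 346 CPM in the adherent libraries and 23.4, 28.7 and 29.8 CPM in the ULA libraries. No ULA library came near an adherent one for either gene (-2.92 ± 0.06 and -3.69 ± 0.11). Of the serine pathway, Phgdh went from 590 ± 36.7 to 129 ± 12.8 CPM, Psat1 from 845 ± 5.09 to 222 ± 10.8 CPM and Shmt2 from 423 ± 4.14 to 48.4 ± 5.29 CPM. Bcat1, which starts the breakdown of branched-chain amino acids in the cytosol, went from 67.9 ± 5.36 to 1.78 ± 0.433 CPM (-5.28 ± 0.12). The exception was Aldh1l1, which disposes of formyl folate and rose from 0.0188 ± 0.0325 to 0.418 ± 0.185 CPM (log2 fold change 4.42, SE 1.20). Its adherent level was near 0, where a fall could hardly have been called, so it is a weak exception. Among 17 tested amino acid transporters, 9 fell and 5 rose. Slc7a11, the cystine importer, read 324, 303 and 318 CPM in the adherent libraries and 18.9, 24.9 and 24.6 CPM in the ULA libraries, a 13.9-fold fall. Slc7a1, which imports arginine and lysine, fell by 8.16-fold, and Slc3a2, the heavy chain that Slc7a11 and Slc7a5 share, by 3.8-fold. Those that rose included Slc38a1, a glutamine carrier, from 373 ± 11.3 to 414 ± 16.7 CPM, and Slc43a2, from 2.04 ± 0.729 to 26 ± 3.54 CPM.

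Of 20 cytosolic tRNA synthetases, 19 fell, 13 of them at least 2-fold. Wars, which charges tRNA with tryptophan, read 319, 337 and 336 CPM in the adherent libraries and 49.6, 47.7 and 50.3 CPM in the ULA libraries, and Gars, for glycine, went from 810 ± 26.2 to 178 ± 10.9 CPM. The synthetase that rose was Dars, for aspartate, from 123 ± 2.93 to 168 ± 4.05 CPM (log2 fold change 0.45, SE 0.07, adjusted p = 6.92e-07). The translation machinery fell as a block. All 50 of 50 tested cytosolic ribosomal protein genes fell, 27 at least 2-fold, over a range of log2 fold changes from -1.57 to -0.44. Their summed level went from 30775 ± 1968 to 15038 ± 749 CPM. Rpl3, of the large subunit, read 1824, 2189 and 1873 CPM in the adherent libraries and 827, 789 and 815 CPM in the ULA libraries. Rpsa, of the small subunit, read 1675, 1851 and 1675 CPM in the adherent libraries and 663, 661 and 695 CPM in the ULA libraries. Ribosomal protein genes have many processed pseudogenes, and reads that map to several places were not counted, so the amounts are uncertain. Eef1a1, the elongation factor that brings charged tRNA to the ribosome, fell from 11497 ± 1002 to 5808 ± 165 CPM. Of 40 genes of ribosome assembly in the nucleolus, 38 fell and 1 rose. The nucleolar proteins Npm1 and Ncl went from 2729 ± 191 to 905 ± 36.8 CPM and from 2428 ± 74.5 to 842 ± 25 CPM. Polr1a, the large subunit of RNA polymerase I, was the member that rose, by 1.28-fold. Myc, which drives ribosome genes in growing cells, read 257, 281 and 259 CPM in adherent and 60.8, 67.3 and 66.4 CPM in ULA libraries (log2 fold change -2.03, SE 0.09, adjusted p = 2.85e-15). The mitochondrial ribosome moved little, with 23 of 42 genes lower, 1 higher and a median of -0.26.

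Sterol synthesis was lower at nearly every step. Of 27 tested genes, 24 fell and 2 rose, with a median log2 fold change of -1.81. Sqle, which oxidises squalene, read 398, 410 and 405 CPM in the adherent libraries and 104, 113 and 115 CPM in the ULA libraries (log2 fold change -1.87, SE 0.05, adjusted p = 1.87e-26). Lss, which closes the sterol rings, went from 239 ± 5.72 to 29.3 ± 0.455 CPM and Mvd, of the mevalonate steps, from 88.1 ± 4.67 to 8.48 ± 1.16 CPM. The groups were separate for all 3 enzymes. Insig1, the SREBP-retaining protein that is itself an SREBP target, went from 410 ± 7.69 to 75.7 ± 8.68 CPM. Srebf2, which encodes SREBP2, fell by 1.9-fold. Hmgcs1, an enzyme early in the mevalonate steps, went the other way, with 426, 409 and 430 CPM in the adherent libraries and 574, 525 and 565 CPM in the ULA libraries (log2 fold change 0.40, SE 0.07, adjusted p = 7.31e-06). Its ULA values lay above the adherent ones by a small margin. Hmgcs1 was also the only gene of the list with the classical sterol regulatory element, spelled TCACCCCAC and searched on both strands, in the 250 bases before its start. That motif was in 1 of 23 promoters of the list (4.35%) and in 0.491% of all promoters. It was in 0.383% of those of genes raised at least 2-fold and in 0.446% of those of genes lowered at least 2-fold. The promoter is printed because its gene left the direction of its pathway.
Hmgcs1 (chr13:119690201-119690350, plus strand, match at -137 to -129, in capitals): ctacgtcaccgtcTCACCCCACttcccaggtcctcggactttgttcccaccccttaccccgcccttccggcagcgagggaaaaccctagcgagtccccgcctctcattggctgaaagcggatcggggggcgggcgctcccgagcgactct
The exact letters of the element vary between sterol genes, and other spellings were not searched.

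Handling of stored and exported sterol moved less uniformly. Soat1, which esterifies cholesterol for storage, went from 578 ± 19.2 to 1670 ± 69.4 CPM, Npc2, a lysosomal sterol carrier, from 336 ± 10.2 to 492 ± 10.8 CPM, and Apoe, a lipid-binding apolipoprotein, from 8.41 ± 0.585 to 4.31 ± 0.381 CPM. In fatty acid synthesis 16 of 22 genes fell and 5 rose. Scd2, a desaturase and the most reduced fatty acid gene by CPM, read 5394, 4906 and 5393 CPM in the adherent libraries and 2585, 2987 and 2873 CPM in the ULA libraries. Fasn, the fatty acid synthase, read 620, 607 and 651 CPM in the adherent libraries and 286, 259 and 272 CPM in the ULA libraries. Both were lower in all 3 ULA libraries (-0.89 ± 0.06 and -1.20 ± 0.06). Acss2, which makes acetyl-CoA from acetate, rose from 15.4 ± 0.353 to 50.6 ± 0.496 CPM. Genes of fatty acid oxidation rose in 23 of 33 cases, 5 of them at least 2-fold, and fell in 1, with a median of 0.36. Cpt1a, which admits fatty acids to mitochondria, read 101, 91.4 and 97.7 CPM in the adherent libraries and 232, 228 and 224 CPM in the ULA libraries (log2 fold change 1.24, SE 0.06, adjusted p = 4.84e-20).

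**Figure D2:**
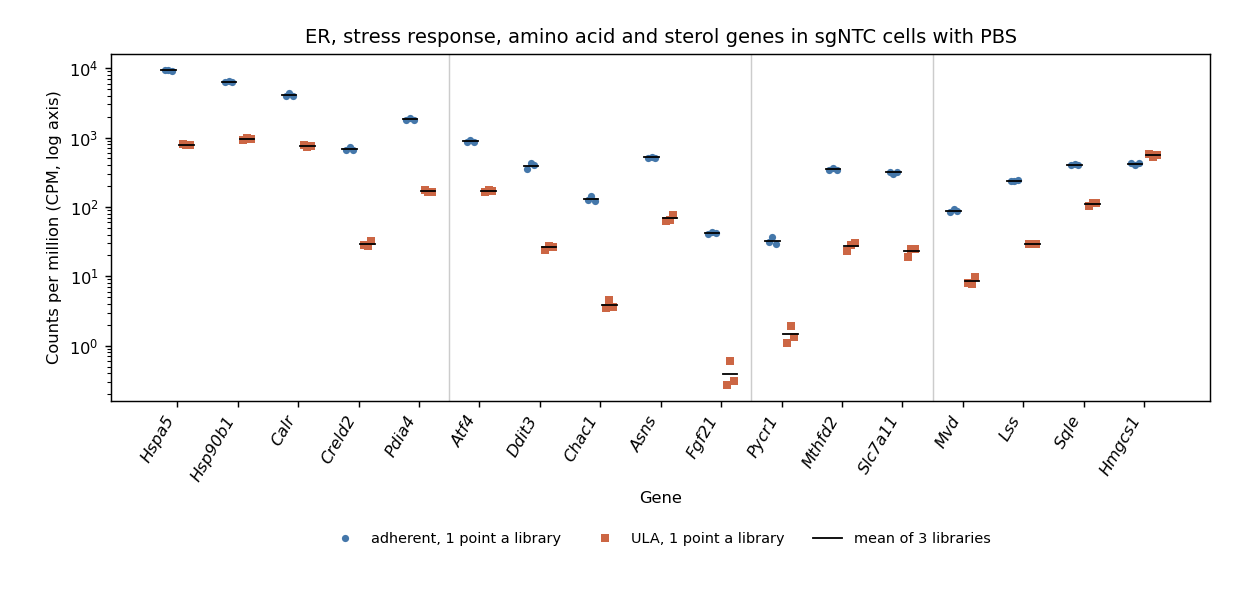
CPM (log axis) of 17 genes of ER folding, stress response, amino acid supply and sterol synthesis in each of the 6 libraries, adherent as circles and ULA as squares, with bars at the mean of 3 libraries. The ULA points lie below the adherent points for every gene but Hmgcs1; for Hspa5 they sit at 770 to 795 against 9239 to 9557 CPM.

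Genes of proliferation fell by smaller factors. In DNA replication 37 of 46 genes fell and 1 rose, with a median of -0.54, and in mitosis 32 of 40 fell and 1 rose, with a median of -0.60. Cdt1, which licenses origins, read 76.2, 78.5 and 78.7 CPM in the adherent libraries and 25.5, 22.8 and 25.1 CPM in the ULA libraries, and the helicase subunit Mcm2 went from 190 ± 6.18 to 80.7 ± 4.32 CPM. Mki67, the proliferation antigen Ki-67, read 327, 271 and 313 CPM in the adherent libraries and 211, 212 and 232 CPM in the ULA libraries. The groups did not overlap for either gene (-1.67 ± 0.07 and -0.48 ± 0.07). Top2a, the topoisomerase of dividing cells, went from 512 ± 31.4 to 274 ± 11.9 CPM, Foxm1, which drives mitotic genes, from 99 ± 4.22 to 49.5 ± 0.862 CPM, and Ccnb1, the mitotic cyclin, from 113 ± 1.44 to 64.3 ± 1.42 CPM. The D-type cyclin Ccnd1, which answers to growth signals, read 152, 152 and 163 CPM in the adherent libraries and 45.2, 42.2 and 49.3 CPM in the ULA libraries (-1.77 ± 0.06), while its relative Ccnd3 rose from 32.4 ± 2.46 to 60.1 ± 1.13 CPM and Ccng2, a cyclin of quiescent cells, from 53.8 ± 2.93 to 146 ± 17.8 CPM. Cdkn1a, the CDK inhibitor p21, read 52.4, 50.8 and 55.9 CPM in adherent and 74.3, 120 and 104 CPM in ULA libraries, higher in all 3 ULA libraries though unevenly so (log2 fold change 0.90, SE 0.18, adjusted p = 0.000226). Other genes known as p53 targets were mostly lower, 14 of 23 with 5 higher, in cells that lack functional p53. Replication-dependent histone genes, whose transcripts normally lack a poly-A tail and are little captured by poly-A selection, rose in 12 of 22 cases, each at least 2-fold, and none fell. Hist1h1c read 84.8, 84.2 and 84.1 CPM in adherent and 303, 276 and 296 CPM in ULA libraries.

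Targets and brakes of the ERK pathway, which carries growth factor signals, were lower in 15 of 20 cases and higher in 2. Spry4, an inhibitor induced by ERK, went from 37.3 ± 1.45 to 4.63 ± 0.484 CPM, the phosphatase Dusp6 from 287 ± 10.2 to 153 ± 3.81 CPM, the ETS factor Etv4 from 65.5 ± 0.504 to 22.9 ± 2.12 CPM and the receptor Epha2 from 373 ± 8.63 to 79.6 ± 5.51 CPM. Immediate early genes split, 12 higher and 8 lower of 25. Within the AP-1 family, Fosl1 read 38.9, 37.5 and 39.1 CPM in the adherent libraries and 3.18, 5.4 and 4.23 CPM in the ULA libraries. Fos read 78.4, 62.8 and 64.4 CPM in the adherent libraries and 242, 259 and 207 CPM in the ULA libraries. These 2 partners of Jun thus moved in opposite directions (-3.19 ± 0.13 and 1.78 ± 0.18), with no overlap of libraries for either. Jun rose from 85.6 ± 1.27 to 135 ± 7.82 CPM. NF-kB subunits and targets also split, 9 higher and 10 lower of 23. Ptgs2, the inducible cyclooxygenase, read 1850, 1754 and 1692 CPM in the adherent libraries and 377, 399 and 437 CPM in the ULA libraries (log2 fold change -2.13, SE 0.13, adjusted p = 3.17e-11), and Nfkbia, the inhibitor of NF-kB, rose from 17.6 ± 1.08 to 41.9 ± 1.26 CPM. Of 21 genes of insulin signalling and of the FOXO factors it restrains, 14 rose and 6 fell, 2 of the latter at least 2-fold. Those that rose included Pik3ip1, a PI3 kinase inhibitor, from 17.6 ± 0.069 to 64.7 ± 5.8 CPM, and Fbxo32, a ubiquitin ligase subunit, from 8.26 ± 0.344 to 28.4 ± 1.29 CPM. Among growth factors and receptors, Igf1r rose from 150 ± 10.7 to 267 ± 15.5 CPM while Igf1 fell from 6.3 ± 0.501 to 0.915 ± 0.164 CPM and Egfr from 184 ± 4.29 to 123 ± 8.3 CPM.

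Interferon-inducible genes rose together although no interferon was added. Of 53 tested genes, 50 rose and none fell, 39 of them at least 2-fold, with a median log2 fold change of 2.06. Most were at low levels, with a summed 1086 ± 38 CPM in adherent and 2092 ± 108 CPM in ULA cells. Oas2, which senses double-stranded RNA and makes the activator of RNase L, read 1.25, 1.8 and 1.87 CPM in the adherent libraries and 35.5, 31.7 and 40.9 CPM in the ULA libraries (log2 fold change 4.49, SE 0.19, adjusted p = 2.91e-19). Ifitm3, a membrane protein that blocks virus entry, read 8.2, 9.23 and 7.33 CPM in the adherent libraries and 45.9, 44.3 and 53.9 CPM in the ULA libraries (log2 fold change 2.54, SE 0.10, adjusted p = 1.63e-21). Irf7, the amplifier of interferon production, read 1.58, 2.34 and 1.66 CPM in the adherent libraries and 16.5, 14.3 and 19.6 CPM in the ULA libraries (3.19 ± 0.21). In all 3 genes the lowest ULA library was several times above the highest adherent library. Mx1, an antiviral GTPase, read 0.54, 0.113 and 0.613 CPM in adherent and 8.47, 7.22 and 8.7 CPM in ULA libraries, and Rsad2, the enzyme viperin, 3.86, 3.24 and 2.73 CPM in adherent and 12.6, 9.21 and 14.1 CPM in ULA libraries. The RNA sensor Ifih1 (MDA5) went from 12.2 ± 0.658 to 42.9 ± 2.27 CPM and Ddx58 (RIG-I) from 29.7 ± 1.75 to 53.6 ± 4.5 CPM. Irf1, the first target of IFN-gamma signalling, was not called (from 47.6 ± 3.04 to 48.4 ± 2.07 CPM, log2 fold change 0.02, SE 0.09, adjusted p = 0.838). Interferons themselves were at or near 0. Ifng, Ifna1, Ifna2, Ifnl2 and Ifnl3 had no count in the 6 libraries, Ifnb1 had 1 count in an adherent and 2 in a ULA library, Ifna4 and Ifnk had 2 counts in 1 ULA library each, and Ifne, which is expressed in the female reproductive tract, had at most 8 counts in a library.

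The interferon-stimulated response element, spelled GAAA, NN and GAAA in a row and searched on both strands, occurred in 21 of 47 promoters of the list (44.7%), in 2.66% of all promoters, in 4.6% of those of genes raised at least 2-fold and in 2.86% of those of genes lowered at least 2-fold. The list was written from knowledge of interferon targets, so the motif is common in it by its choice. The promoters of 4 raised genes are shown because they carry the motif near the start, singly, in separate copies or in overlapping copies (capitals, and on the other strand it reads TTTC, NN and TTTC).
Ifi203 (chr1:173942493-173942642, minus strand): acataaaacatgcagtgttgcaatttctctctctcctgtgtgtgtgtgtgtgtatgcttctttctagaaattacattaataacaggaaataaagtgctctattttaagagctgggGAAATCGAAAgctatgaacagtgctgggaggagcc
Isg15 (chr4:156200819-156200968, minus strand): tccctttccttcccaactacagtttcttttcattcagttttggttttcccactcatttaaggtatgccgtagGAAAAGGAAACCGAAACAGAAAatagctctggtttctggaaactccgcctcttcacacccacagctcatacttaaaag
Ifit1 (chr19:34640739-34640888, plus strand): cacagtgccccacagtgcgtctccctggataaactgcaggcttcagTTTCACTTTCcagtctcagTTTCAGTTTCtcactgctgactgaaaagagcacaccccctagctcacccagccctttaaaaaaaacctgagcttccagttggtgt
Gbp3 (chr3:142559894-142560043, plus strand): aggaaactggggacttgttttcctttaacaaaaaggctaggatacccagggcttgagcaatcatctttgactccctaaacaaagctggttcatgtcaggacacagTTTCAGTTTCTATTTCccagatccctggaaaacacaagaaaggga
Isg15 held 3 overlapping matches, Ifit1 2 matches, Gbp3 2 overlapping matches and Ifi203 1. Isg15, a ubiquitin-like modifier, read 2.22, 2.65 and 1.96 CPM in adherent and 6.22, 5.98 and 8 CPM in ULA libraries, and Gbp3, a guanylate-binding GTPase, 1.53, 0.788 and 0.675 CPM in adherent and 10.5, 9.13 and 12.9 CPM in ULA libraries. Ifit1, which binds foreign RNA caps, read 1.79, 1.52 and 1.44 CPM in adherent and 8.76, 6.3 and 9.96 CPM in ULA libraries, and Ifi203, a DNA-binding protein of the p200 family, 4.17, 2.31 and 3.16 CPM in adherent and 23.7, 24.1 and 24.1 CPM in ULA libraries. All 4 rose, with log2 fold changes of 1.56 ± 0.18, 3.36 ± 0.29, 2.38 ± 0.41 and 2.87 ± 0.15 in that order. The number of matches did not follow the size of the rise. Gbp3 and Ifi203 belong to families of similar genes and their counts are less certain.

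Antigen presentation on MHC class I rose in part, 12 of 17 genes with 1 lower, by a median of 0.64. B2m, the light chain, went from 158 ± 10.8 to 266 ± 37.5 CPM, Tap1, a subunit of the peptide pump, from 2.59 ± 0.579 to 10.9 ± 0.917 CPM, and Tapbp, which bridges pump and heavy chain, from 160 ± 4.43 to 426 ± 8.35 CPM. H2-K1, a classical heavy chain, went from 31.5 ± 2.13 to 33.1 ± 2.8 CPM and was not called (adjusted p = 0.696). Among checkpoint ligands, Cd274, which encodes PD-L1, read 4.88, 5.4 and 6.56 CPM in adherent and 9.88, 11.2 and 7.76 CPM in ULA libraries (log2 fold change 0.79, SE 0.29, adjusted p = 0.0229), a call that 4 of the 6 single-library omissions removed. Of 21 tested chemokines and cytokines, 14 rose and 3 fell. Cxcl12, which guides CXCR4-bearing cells, went from 112 ± 5.72 to 278 ± 19.2 CPM, Csf1, the growth factor of macrophages, from 64.7 ± 2.64 to 106 ± 2.41 CPM, and Ccl20 from 6.81 ± 1.2 to 0.461 ± 0.17 CPM.

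Secreted proteins of the acute phase and complement were among the largest increases. Acute phase genes rose in 11 of 12 cases, 10 at least 2-fold, and complement genes in 10 of 14, 9 at least 2-fold, and 1 of each list fell. Hp (chr8:109575128-109579172), the haemoglobin-binding protein haptoglobin, read 3.39, 4.02 and 3.68 CPM in the adherent libraries and 273, 232 and 268 CPM in the ULA libraries (log2 fold change 6.13, SE 0.17, adjusted p = 1.94e-17). C3, the central complement component, read 41.3, 36 and 36.6 CPM in the adherent libraries and 338, 324 and 296 CPM in the ULA libraries (log2 fold change 3.07, SE 0.11, adjusted p = 1.69e-16). C4b, which acts before C3 in the classical pathway, read 0.149, 0.281 and 0.307 CPM in the adherent libraries and 8.76, 8.79 and 8.87 CPM in the ULA libraries (log2 fold change 5.22, SE 0.31, adjusted p = 1.41e-16). Each ULA library exceeded each adherent library several times over for these 3 genes. C4b has a near-identical neighbour and multi-mapping reads were left out, so its level is less certain. Cp, the ferroxidase ceruloplasmin, went from 182 ± 9.9 to 630 ± 35.2 CPM, and Stat3, the transcription factor of the acute phase response, from 150 ± 5.56 to 415 ± 17.6 CPM, with its feedback inhibitor Socs3 from 23.3 ± 0.302 to 74.6 ± 4.07 CPM. Lcn2, another iron-related acute phase protein, went against the group, at 2.16, 2.84 and 1.69 CPM in adherent and 0.121, 0.602 and 0.483 CPM in ULA libraries (log2 fold change -2.52, SE 0.36, adjusted p = 2.32e-07).

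Txnip (chr3:96557957-96561883), which binds thioredoxin and slows glucose uptake, read 9.33, 9.32 and 7.36 CPM in the adherent libraries and 507, 418 and 430 CPM in the ULA libraries, a 51.7-fold rise (log2 fold change 5.69, SE 0.21, adjusted p = 5.28e-14). Its activator Mlxipl, the glucose-sensing factor ChREBP, went from 3.01 ± 0.427 to 23.8 ± 1.17 CPM, and Arrdc4, a relative of Txnip, from 1.27 ± 0.134 to 5.2 ± 0.841 CPM. The glucose-sensing list did not move one way, as 8 of 13 tested genes rose and 3 fell, with log2 fold changes from -3.31 to 5.69. In Ifngr1-KO cells Arrdc4 was not called (log2 fold change 0.10, adjusted p = 0.739). Aox3, an aldehyde oxidase, read 23.1, 19.9 and 19.3 CPM in the adherent libraries and 783, 716 and 643 CPM in the ULA libraries, and was among the most abundant of the strongly raised genes. The related Aox1 went from 32.7 ± 0.5 to 122 ± 9.9 CPM.

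**Figure D3:**
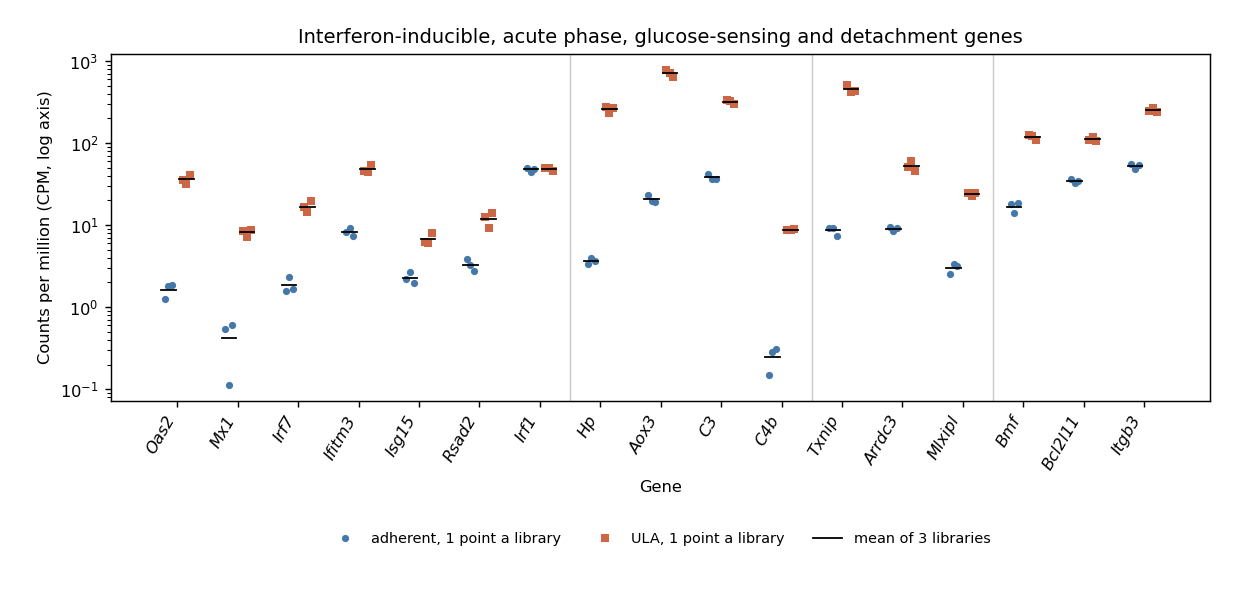
CPM (log axis) of 17 interferon-inducible, acute phase, glucose-sensing and detachment genes in each of the 6 libraries, adherent as circles and ULA as squares, with bars at the mean of 3 libraries. The ULA points lie above the adherent points for every gene but Irf1, where they overlap; for Hp they sit at 232 to 273 against 3.39 to 4.02 CPM.

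Of the gene lists, the genes encoded in the mitochondrial genome gained the most counts. All 13 of 13 rose, 11 of them at least 2-fold, and their sum went from 26573 ± 1457 to 54350 ± 3022 CPM. mt-Co1, a subunit of cytochrome oxidase, read 17061, 16925 and 15255 CPM in the adherent libraries and 24088, 27501 and 27399 CPM in the ULA libraries (log2 fold change 0.68, SE 0.07, adjusted p = 1.18e-09). mt-Cytb, of complex III, read 3374, 3369 and 3110 CPM in the adherent libraries and 7516, 8053 and 8212 CPM in the ULA libraries (1.27 ± 0.07). There was no overlap between the groups. With these genes left out before scaling, 9428 genes were called between the cultures, beside 9446 with them. The nuclear partners moved far less, 26 of 45 higher and 2 lower with a median of 0.26. Malat1, a nuclear long non-coding RNA, was among the 6 genes with the largest gain in CPM, at 2837, 2226 and 2855 CPM in the adherent libraries and 6170, 5369 and 4965 CPM in the ULA libraries.

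Genes of glycolysis rose in 16 of 25 cases and fell in 2. Ldhb, the heart-type lactate dehydrogenase, read 54.5, 53.9 and 50.4 CPM in the adherent libraries and 348, 321 and 321 CPM in the ULA libraries (log2 fold change 2.64, SE 0.08, adjusted p = 8.61e-23). Hk1, which traps glucose in the cell, went from 275 ± 11.3 to 880 ± 114 CPM, and the lactate carrier Slc16a1 from 238 ± 8.14 to 424 ± 14 CPM. Targets of hypoxia-inducible factors rose in 20 of 26 cases, 10 at least 2-fold, and fell in 3. Egln3, an oxygen-sensing hydroxylase, read 116, 105 and 114 CPM in the adherent libraries and 390, 464 and 411 CPM in the ULA libraries, and Car12, a carbonic anhydrase of the cell surface, went from 67.2 ± 3.04 to 151 ± 11 CPM. Both were higher in every ULA library (1.92 ± 0.12 and 1.17 ± 0.07). Among the exceptions were Ddit4, an mTORC1 inhibitor that ATF4 also induces, from 139 ± 7.9 to 53.2 ± 6.93 CPM, and Hif1a itself, from 816 ± 40.6 to 653 ± 54.9 CPM. Epas1, which encodes HIF-2 alpha, rose from 31.7 ± 0.845 to 89.6 ± 8.11 CPM.

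Among genes of attachment, integrins moved singly. Of 17 tested integrin genes, 7 rose and 4 fell. Itgb3, the beta chain of the vitronectin receptor, read 55.3, 48.6 and 53.8 CPM in the adherent libraries and 247, 266 and 238 CPM in the ULA libraries (log2 fold change 2.25, SE 0.08, adjusted p = 8.88e-22). Its alpha partner Itgav went from 155 ± 4.93 to 304 ± 14.1 CPM, and Itga6, a laminin receptor chain, from 654 ± 18.3 to 1611 ± 53.3 CPM. Itga3, another laminin receptor chain, fell from 407 ± 13.3 to 305 ± 17.4 CPM, and Itgb1, the beta chain that most matrix receptors share, went from 733 ± 19.2 to 758 ± 28.2 CPM and was not called (log2 fold change 0.05, SE 0.04, adjusted p = 0.348), though it was with library totals as scaling. Matrix genes split, 15 higher and 7 lower of 31. Thbs1, thrombospondin, read 14.8, 12.9 and 13.5 CPM in the adherent libraries and 91.7, 97.5 and 98.7 CPM in the ULA libraries. Sparc, a collagen-binding matrix protein, read 989, 1056 and 990 CPM in the adherent libraries and 604, 610 and 576 CPM in the ULA libraries. The groups did not overlap for either gene (2.80 ± 0.08 and -0.76 ± 0.05). Col1a1, a chain of type I collagen, went from 52.9 ± 6.98 to 21.8 ± 1.51 CPM, and Serpinh1, the ER chaperone of collagen, from 557 ± 49 to 222 ± 7.58 CPM. Of proteases and inhibitors, 13 of 24 rose and 4 fell, with the urokinase receptor Plaur from 109 ± 12.1 to 27.9 ± 1.83 CPM and the inhibitor Timp2 from 432 ± 6.53 to 967 ± 11.3 CPM. Ddr2, a kinase that binds fibrillar collagen, read 29.1, 30.1 and 30.9 CPM in adherent and 0.817, 1.4 and 0.749 CPM in ULA libraries (log2 fold change -4.92, SE 0.22, adjusted p = 1.23e-15).

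YAP and TAZ, coactivators that enter the nucleus when cells spread, act through TEAD factors. Of 22 of their known targets, 12 fell and 8 rose, with a median of -0.21, so the list did not move one way. Ankrd1, a widely used reporter of YAP, read 263, 270 and 252 CPM in the adherent libraries and 28.6, 30.6 and 31.5 CPM in the ULA libraries (log2 fold change -3.11, SE 0.05, adjusted p = 2.47e-32). Ajuba and Amotl2, which feed back on the pathway, went from 136 ± 2.63 to 41 ± 2.72 CPM and from 161 ± 8.79 to 92.1 ± 5.67 CPM. Axl, a receptor kinase, rose from 478 ± 7.07 to 632 ± 21.6 CPM. The core TEAD motif GGAATG, on either strand, was in 10 of 21 promoters of the list (47.6%) and in 11.3% of all promoters. It was in 12.8% of those of genes raised at least 2-fold and in 11.7% of those of genes lowered at least 2-fold. The list was written from known targets, so the motif can be common in it by its choice. The promoter of Ankrd1, the most lowered member, is shown with the match that falls within its last 150 bases in capitals. The other match lies further from the start and is not printed.
Ankrd1 (chr19:36119845-36119994, minus strand): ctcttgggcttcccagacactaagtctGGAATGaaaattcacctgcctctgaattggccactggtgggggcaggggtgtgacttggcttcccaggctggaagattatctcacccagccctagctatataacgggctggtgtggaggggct
Genes of the actin cytoskeleton and SRF targets also split, 17 higher and 11 lower of 35. Myh10, a non-muscle myosin, rose from 142 ± 8.17 to 323 ± 7.82 CPM, and Flna, the actin crosslinker filamin A, fell from 1307 ± 23.3 to 950 ± 29.6 CPM. Rhob, a small GTPase of stress, rose from 127 ± 2.98 to 375 ± 12.4 CPM.

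Genes that decide anoikis moved to either side. Of 18 genes, 8 rose and 7 fell. Bmf, a killer protein that the cytoskeleton holds in attached cells, read 18.1, 13.9 and 18.4 CPM in the adherent libraries and 124, 122 and 108 CPM in the ULA libraries (log2 fold change 2.81, SE 0.09, adjusted p = 3.9e-23). Bcl2l11, the killer protein BIM, read 36.5, 32.6 and 34.8 CPM in the adherent libraries and 110, 117 and 107 CPM in the ULA libraries (log2 fold change 1.68, SE 0.07, adjusted p = 1.85e-20). Bcl2, which binds and restrains both, read 61.1, 62.3 and 59.5 CPM in the adherent libraries and 16.2, 17.6 and 15.6 CPM in the ULA libraries (log2 fold change -1.89, SE 0.08, adjusted p = 6.82e-21). The groups were separate for these 3 genes. Bcl2l1, which encodes BCL-XL, went from 148 ± 1.83 to 80.9 ± 3.27 CPM and Mcl1, another survival protein, from 194 ± 1.35 to 230 ± 3.69 CPM, while Bbc3, the killer protein PUMA and a p53 target, fell from 19.2 ± 1.92 to 7.45 ± 0.647 CPM. Of death receptors, caspases and necroptosis genes, 13 of 27 rose and 7 fell. Casp6, an executioner caspase, went from 28.4 ± 0.829 to 160 ± 3.58 CPM, and Cflar, the inhibitor of caspase 8, from 220 ± 10.8 to 119 ± 3.01 CPM. These cells are the ones left after dead cells were taken out of the ULA wells.

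Lysosomal genes were more often higher, 22 of 37 with 9 lower. Psap, the precursor of the saposins, went from 458 ± 19.2 to 908 ± 22.5 CPM, and the protease Ctsb from 484 ± 22.4 to 916 ± 10.6 CPM. Autophagy genes split 12 to 9 of 29, with the kinase Ulk1 from 59.5 ± 4.19 to 146 ± 6.65 CPM and the receptor Sqstm1 from 1896 ± 137 to 748 ± 36.6 CPM. Genes of the NRF2 and glutathione list were also more often higher, 16 higher and 5 lower of 29. Gsta4, a glutathione transferase, went from 170 ± 6.34 to 598 ± 4.65 CPM, and Txnrd1, thioredoxin reductase, from 401 ± 11.5 to 159 ± 1.9 CPM. Heat shock genes split as well, 12 higher and 9 lower of 22, with the mitochondrial chaperone Hspd1 from 1181 ± 35.3 to 425 ± 18.8 CPM and the small chaperone Hspb8 from 122 ± 17.6 to 202 ± 2.11 CPM. Of Wnt pathway genes 12 of 19 rose and 2 fell, with Lgr4, a receptor for R-spondins, from 169 ± 1.45 to 422 ± 16.6 CPM and Wnt4 from 2.01 ± 0.4 to 9.09 ± 1.54 CPM. Of identity genes 19 of 29 rose and 4 fell. Krt8 went from 195 ± 18.1 to 407 ± 10.2 CPM, while the mesothelial antigen Msln fell, at 663, 682 and 664 CPM in adherent and 307, 313 and 299 CPM in ULA libraries (log2 fold change -1.13, SE 0.05, adjusted p = 3.86e-21).

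**Figure D4:**
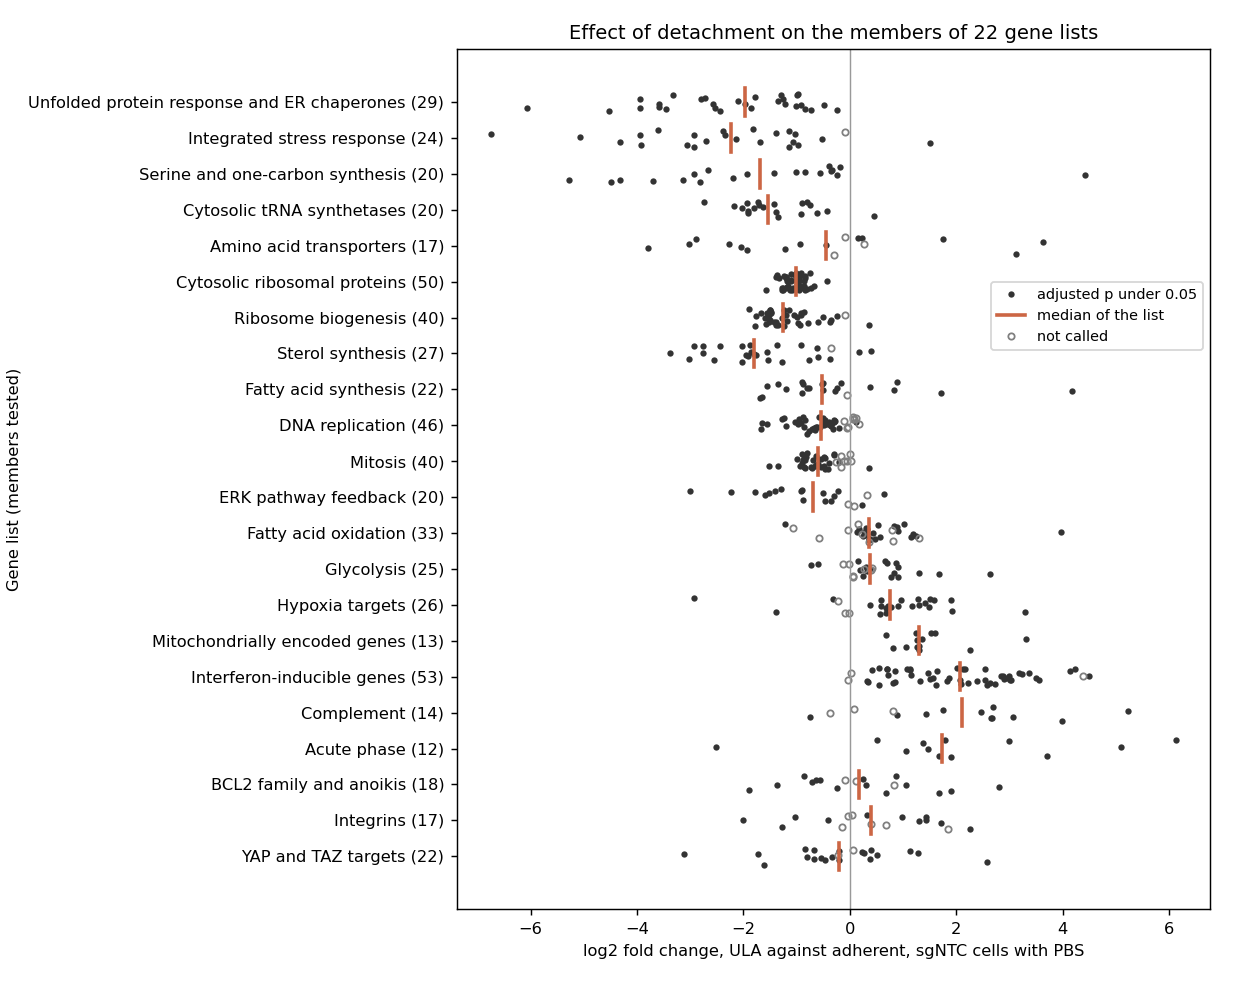
Log2 fold change of ULA against adherent sgNTC cells in PBS for the tested members of 22 gene lists, 1 row per list and 1 point per gene (filled where called, open where not), with a bar at the median. The lists of ER chaperones, integrated stress response and sterol synthesis lie to the left (medians -1.98, -2.24 and -1.81), and interferon-inducible genes to the right (2.06), beside a median of 0.03 over all genes.

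The genes that changed most, among those with at least 5 CPM in a group and no overlap of libraries, held several genes outside these groups. Predicted gene models were left out of this ranking. Pnliprp1, a lipase-related protein of pancreas, had no count in any adherent library and 1041, 598 and 466 counts in the ULA libraries. Against a floor of 3 counts over the 3 adherent libraries this was at least 582-fold higher, though each mate adds a count and the bound is not strict. Mgp, a matrix protein that inhibits calcification, read 0.633, 0.647 and 0.276 CPM in adherent and 13.7, 10.4 and 12.9 CPM in ULA libraries. Muc5b, a gel-forming mucin, read 0.838, 0.366 and 0.828 CPM in adherent and 15.7, 15.6 and 15.1 CPM in ULA libraries, and Enpp2, autotaxin, which makes lysophosphatidic acid, 2.22, 2.65 and 2.45 CPM in adherent and 52.5, 45.9 and 41.3 CPM in ULA libraries. Mmp15, a membrane-bound metalloprotease, Clstn3, a calsyntenin, and Nrep completed the 12 largest increases, with log2 fold changes of 4.42 ± 0.28, 4.38 ± 0.29 and 4.44 ± 0.41. Beside Fgf21, Derl3, Bcat1, Chac1 and Ddr2, the 12 largest decreases were Mei4, Sspo, Car6, Acox2, Sh2d6, Abca12 and Hhipl1. Car6, a secreted carbonic anhydrase, read 48.3, 67.4 and 49.2 CPM in adherent and 1.81, 0.842 and 1.64 CPM in ULA libraries, and Mei4, a protein of meiotic recombination, 6.02, 5.6 and 5.52 CPM in adherent and 0.121, 0 and 0.0483 CPM in ULA libraries. Acox2, an oxidase of bile acid and branched lipid breakdown, read 5.96, 5.69 and 7.33 CPM in adherent and 0.151, 0.221 and 0.242 CPM in ULA libraries. The other 4 fell by 23.5-fold to 42.4-fold.

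The same cells under IFN-gamma changed in a similar number of genes. With IFN-gamma in both cultures, 64.6% of genes (9447) were called between ULA and adherent sgNTC cells. Of the genes raised in PBS, 87.5% were also raised there, which is 87.0% of those raised with IFN-gamma, and of the genes lowered in PBS 90.7% were also lowered, which is 91.2%. These comparisons share no library. Interferon-inducible genes had a median log2 fold change of 2.38 there and 2.06 in PBS, and ER chaperones -1.98 and -1.98. Whether the effect of detachment differs between PBS and IFN-gamma was not tested.

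Ifngr1-KO cells, in PBS as well, showed 60.7% of genes (8870) called. Of the genes raised in sgNTC cells, 69.7% were raised in Ifngr1-KO cells (76.5% of theirs), and of the lowered genes 76.5% (79.1% of theirs). Whether detachment acted differently in the lines was tested for each gene, as the effect in Ifngr1-KO less that in sgNTC cells, and this was called in 27.8% (4068). Of these, 1771 had the same sign and were larger in size in sgNTC cells, 1053 had the same sign and were larger in Ifngr1-KO cells, and 1244 had opposite signs, 332 of them called in both lines. Each line stands for 1 genotype, so receptor loss and other differences between the lines cannot be told apart.

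In the Ifngr1-KO cells used here, Ifngr1 RNA was at 15.6 ± 0.977 CPM in adherent and 14.7 ± 0.715 CPM in ULA culture, below the sgNTC level given above but not absent, and protein was not measured. The interferon-inducible rise was present in this line too. The median log2 fold change of the list was 1.85 in Ifngr1-KO and 2.06 in sgNTC cells, and the line difference was called for 10 of 53 genes, 6 higher and 4 lower in Ifngr1-KO cells. Ifih1 rose in Ifngr1-KO cells as well, from 6.99 ± 0.728 to 31.4 ± 1.74 CPM (log2 fold change 2.17, SE 0.10, adjusted p = 2.92e-20). Oas2 rose there too (log2 fold change 6.19, SE 0.58, adjusted p = 8.39e-11) but was low, at 0.0171 ± 0.0296 and 1.42 ± 0.444 CPM. Irf1, not called in sgNTC cells, rose in Ifngr1-KO cells (log2 fold change 0.46, SE 0.09, adjusted p = 8.92e-05). The line difference was called for it (0.44, SE 0.13, adjusted p = 0.0123). ER chaperones fell in both lines, with a median of -1.58 in Ifngr1-KO cells, and the line difference was called for 19 of 29 genes, each with the smaller fall in Ifngr1-KO cells. For Hspa5 the fall was -2.79 on the log2 scale in Ifngr1-KO against -3.58 in sgNTC cells (difference 0.79, SE 0.07, adjusted p = 1.56e-10).

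Sterol synthesis and mitosis were among the lists in which the lines differed in most genes. They were not alone, as the line difference was also called for 17 of 20 cytosolic tRNA synthetases and 14 of 17 amino acid transporters. Over all genes it was called in 27.8%. The sterol list had a median of -1.81 in sgNTC and -0.63 in Ifngr1-KO cells, and 23 of 27 genes differed, all with a higher log2 fold change in Ifngr1-KO cells. In adherent culture, Lss, Mvd, Insig1 and Hmgcs1 averaged 116, 54.5, 297 and 205 CPM in Ifngr1-KO cells. In sgNTC cells they averaged 239, 88.1, 410 and 422 CPM. In ULA culture the values were 40.2, 9.32, 129 and 421 CPM beside 29.3, 8.48, 75.7 and 555 CPM in sgNTC cells. Levels were not tested between the lines here. The effect on Sqle was -1.87 in sgNTC cells and -0.39 (adjusted p = 1.16e-08) in Ifngr1-KO cells, a difference of 1.48, SE 0.07, adjusted p = 2.38e-17. The mitosis list had medians of -0.60 and 0.13, with 39 of 40 genes called. Mki67 fell in sgNTC cells and rose in Ifngr1-KO cells, from 267 ± 8.92 to 410 ± 8.08 CPM, a difference of 1.09, SE 0.09, adjusted p = 7.54e-11. The ribosomal protein list had medians of -1.01 and -0.82, and the line difference was called for 20 of 50 genes, 19 of them with the smaller fall in Ifngr1-KO cells. Slc7a5, a large neutral amino acid carrier, fell in sgNTC cells (-1.22) and was not called in Ifngr1-KO cells (-0.02, adjusted p = 0.829), a difference of 1.20, SE 0.11, adjusted p = 3.25e-09. Itga3 fell in sgNTC cells (-0.42) and rose in Ifngr1-KO cells (0.99), a difference of 1.41, SE 0.08, adjusted p = 5.6e-15.

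**Figure D5:**
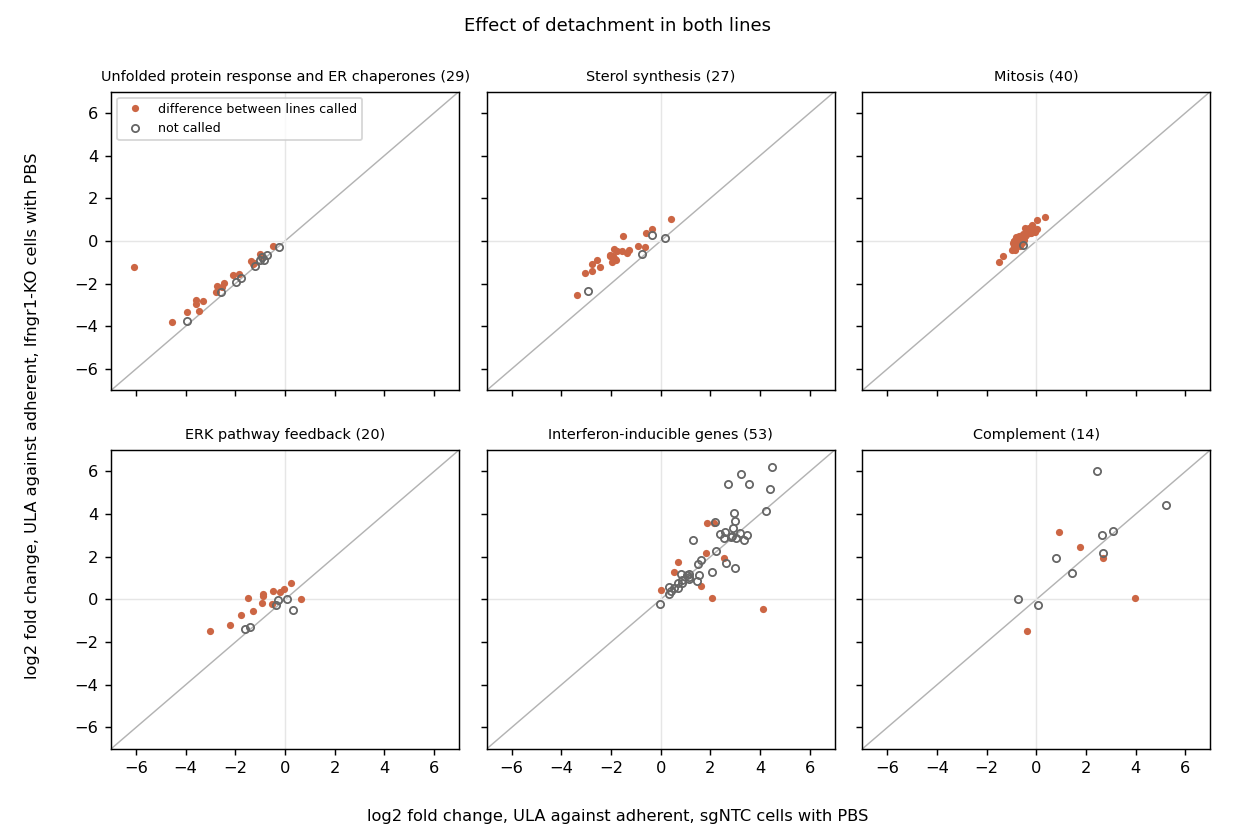
Log2 fold change of ULA against adherent culture in PBS in sgNTC cells (horizontal axis) and in Ifngr1-KO cells (vertical axis) for the members of 6 gene lists, 1 panel per list and 1 point per gene, filled where the lines differed by the test; the diagonal marks equal effects. Sterol synthesis and mitosis genes lie above the diagonal, ER chaperones close to it except Derl3, and most interferon-inducible genes are open points on both sides of it.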

How the data were processed

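Poly-A RNA of ID8 p53-/- cells was sequenced in 24 libraries, per the labels' protocols. Per the submitters' processing notes, the authors trimmed reads with Trimmomatic, aligned them to GRCm38 (mm10) with HISAT2, and counted genes with featureCounts of Subread 2.1.1. For the other programs the version is not given in the sources used here. What the authors deposited are raw counts per gene, 1 table per library, and per the file headers each mate of a pair was counted, without a strand setting and without multi-mapping reads, so overlapping, antisense and near-identical genes are less certain. Of 31062 features, 9 are transgenes, 42 have no symbol and 7969 have no count. Symbols and positions for 31011 features came from GENCODE M21 (GRCm38), and promoters from RefSeq (GRCm38.p6).

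Low genes were dropped with filterByExpr of edgeR (minimum count 10), leaving 14622 genes with at least 99.97% of counts. One model with a mean per group was fitted to all 24 libraries (edgeR 4.0.16, R 4.3.3, TMM factors 0.958 to 1.05, robust quasi-likelihood test, 16 residual degrees of freedom), and tests were two-sided with Benjamini-Hochberg adjustment per comparison. CPM values use the TMM-scaled library size unless given as CPM of the library total. Tested on simulated data with 13858 genes for the comparison of ULA with adherent sgNTC cells, the procedure called 34% of genes changed 1.25-fold, 80.9% of those changed 1.5-fold, 89.4% of those changed 2-fold and 93.8% of those changed 4-fold. These shares are over the changed genes that passed the filter. Only 50 genes were changed at each size and 1 spread was set for all genes, whereas 64.6% of genes were called in the data. The shares may therefore not carry over to the data. Motifs were searched in Python 3.11.15. Further motifs were searched but are not described above, namely the CArG box, E2F site, CHR element, ARE core, CLEAR element and hypoxia response element core. The last, ACGTG, was in 51.6% of promoters of the hypoxia list and 20.8% of all promoters. It was in 15.0% of those of genes raised at least 2-fold and 23.5% of those of genes lowered at least 2-fold.

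The 70 gene lists, with 1742 entries, were written from general knowledge, and members, lists and rules were chosen with earlier results of these data known, so counts over a list are descriptions. The rule for named genes took the 12 largest changes each way among called genes with at least 5 CPM in a group and no overlap of libraries, the 6 largest each way by CPM, for each list up to 4 called members each way by smallest adjusted p, the 6 largest line differences each way, and any list member whose role is described; not all are printed. Predicted gene models, features without a symbol and transgenes were left out of the 12 largest changes and of the line differences. The line differences also needed a mean of at least 5 CPM in a PBS group of either line. Floors of 3 counts cover counting error only. Alternatives were other scalings, DESeq2 1.42.0, no filter, halved counts, the compared groups alone, a replicate block, no mitochondrially encoded genes, and leaving out each library.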

Additional observations from a re-analysis of the deposited data

Results flagged for a closer look

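The effect of ULA culture in PBS was tested for a difference between Ifngr1-KO and sgNTC cells, and 4068 of 14622 genes were called in edgeR's quasi-likelihood test. The 6 genes with the largest difference in each direction are given here with their levels, each difference on the log2 scale as the effect in Ifngr1-KO cells less the sgNTC effect. Groups of 3 libraries were not screened for single outlying libraries.

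Edn2, an endothelin peptide, differed by 3.34, going from 1.03 ± 0.152 to 7.82 ± 1.3 CPM in sgNTC cells, and in Ifngr1-KO cells from 0.112 to 9.11 CPM. Krt15, a basal keratin, differed by 2.82, with 6.16 ± 1.25 to 12.5 ± 0.616 CPM and 0.69 to 10 CPM. Muc16, the mucin that carries CA125, differed by 3.47, with 17.3 ± 1.62 to 29.2 ± 3.08 CPM and 0.0738 to 1.45 CPM. These 3 genes rose in both lines, but in DESeq2 the sgNTC rise of Muc16 was not called (log2 fold change 0.79). Tlr7, an RNA sensor, differed by 2.53, as it fell in sgNTC cells (30 ± 2.69 to 3.93 ± 0.643 CPM) and was already low in adherent Ifngr1-KO cells (2.45 CPM). Derl3 differed by 4.85 for the same pattern, with 0.315 CPM in adherent Ifngr1-KO cells. Sgk3, a kinase related to AKT, differed by 5.14, but no count was found in adherent and 0.206 CPM in ULA Ifngr1-KO cells, so this fitted value depends on the prior count.

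On the other side, Mtss1l, a membrane-bending protein, differed by -2.72, with 7.15 to 0.763 CPM in Ifngr1-KO cells and no call in sgNTC cells, where leaving out ULA library 1 gave a call (log2 fold change -0.81). Matn2, a matrix protein, differed by -2.42, with a rise in sgNTC cells (2.28 ± 0.142 to 16.4 ± 1.55 CPM) and 0.703 to 0.936 CPM in Ifngr1-KO cells. mt-Atp8 differed by -2.55, going from 3.73 ± 0.414 to 36.8 ± 10.8 CPM in sgNTC cells, and in Ifngr1-KO cells from 2.78 to 4.65 CPM; it overlaps mt-Atp6, so its counts are uncertain. Pnliprp1 (-10.57), Gas1 (-6.88) and Eda2r (-5.38) had a group without any count, so their fitted differences depend on the prior count and are no bounds. Gas1, a growth-arrest protein, went from 18.9 ± 1.73 to 51.2 ± 3.87 CPM in sgNTC cells and was at 0.126 CPM in adherent Ifngr1-KO cells. Eda2r, a death receptor, went from 18.3 ± 1.94 to 1.53 ± 0.473 CPM in sgNTC cells and was at 1.45 CPM in adherent Ifngr1-KO cells. What sets the lines apart in these genes was not tested.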

How the results depend on the processing

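The 9446 genes called between ULA and adherent sgNTC cells in PBS were 8839 to 8987 when 1 library was left out, with 3 libraries in the other group, and 9316 to 9547 under the other settings. The 4068 genes with a line difference were 3516 to 3999 with a library left out and 4008 to 4406 otherwise, and no count of calls moved by more than 1.5 times under any setting run. With library totals in place of TMM factors the median over all genes was 0.13 in place of 0.03 and 57.2% of calls were raised in place of 50.3%. Of the 70 gene lists, the median of 1 (iron handling) changed sign under another scaling. Equal replicate numbers did not pair the cultures: the deviations of ULA and adherent sgNTC libraries with the same number correlated at 0.05, -0.02 and -0.02. A replicate block gave 9416 calls for sgNTC cells in PBS, 9438 with IFN-gamma, 8833 for Ifngr1-KO cells and 4064 line differences. Of 207 genes named in the text and tested, markers of other cell types left aside, 203 were called and 200 of them kept the call under every setting run, with no reversal. The exceptions were Cd274, whose call was lost in 4 of the 6 single-library omissions (0.66 to 0.78), Ifngr1 without ULA library 1 (-0.19) and Muc16 in DESeq2 (0.79), while Itgb1 gained a call with library totals (0.14) and Mtss1l without ULA library 1 (-0.81). Genes at low levels in both groups are limited by depth, since 3 counts over the adherent libraries correspond to 0.0237 CPM.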

Other observations

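The clock genes rose and fell in numbers near the share of all genes, of which 32.5% rose and 32.1% fell. Of 15 clock genes, 5 rose and 6 fell. Dbp, an output gene of the clock, read 9.07, 8.84 and 6.87 CPM in the adherent libraries and 35.8, 34.3 and 31.4 CPM in the ULA libraries, and the repressor Nr1d1 went from 7.39 ± 0.93 to 44 ± 6.27 CPM. Per2 and Cry1, of the negative limb, fell, from 39.2 ± 2.92 to 14.1 ± 0.593 CPM and from 68.7 ± 1.63 to 20.9 ± 1.1 CPM. All 6 libraries were harvested at 48 hours after seeding, and the time of day is not given in the sources used here.

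Of 28 genes of TGF-beta and BMP signalling, 15 rose and 8 fell, with the ligand Tgfb3 from 38.5 ± 1.11 to 132 ± 6.96 CPM and Id3, a BMP target, from 30.8 ± 2.11 to 107 ± 5.66 CPM. Of 14 mesenchymal genes and regulators of epithelial-mesenchymal transition, 3 rose and 4 fell, a smaller share than the 64.6% called over all genes. Cd44, a hyaluronan receptor, rose from 139 ± 5.66 to 189 ± 8.52 CPM, and the repressors Snai2 and Zeb1 fell, from 141 ± 6.69 to 36.4 ± 6.1 CPM and from 50.7 ± 2.15 to 39.7 ± 3.89 CPM. Proteasome genes fell in 16 of 31 cases and rose in 3, none by 2-fold, with a median of -0.15. Of 23 cilium genes, 11 rose and 8 fell, with the Hedgehog transducer Smo from 74.1 ± 3.63 to 131 ± 1.95 CPM and Gli3 from 62.9 ± 3.08 to 34.2 ± 0.795 CPM. Of 10 tested stemness-associated genes, 6 rose and 1 fell, while the summed level of the list went from 778 ± 9.03 to 730 ± 15.8 CPM of the library total. Of those that rose, Aldh1a1, an aldehyde dehydrogenase used to mark progenitor-like cells, read 15.9, 13.8 and 15.6 CPM in adherent and 64.2, 55.4 and 68.2 CPM in ULA libraries (log2 fold change 2.05, SE 0.09, adjusted p = 5.31e-20). Kit, a receptor kinase, went from 0.228 ± 0.158 to 3.53 ± 0.393 CPM. Cas9, the nuclease transgene carried by the edited cells, read 1234, 1172 and 1205 CPM in adherent and 1957, 2177 and 1965 CPM in ULA libraries (log2 fold change 0.76, SE 0.07, adjusted p = 5.14e-10), higher in every ULA library.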
